A study of Mus musculus with 2 samples.

Results

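Acute-phase proteins are plasma proteins whose amount changes when tissue is injured or infected. Interleukin 6, interleukin 1 and glucocorticoids drive their genes in hepatocytes, through transcription factors that include STAT3, NF-kB and the C/EBP proteins. Fat also makes some of them, and they were therefore taken here as 2 classes within 1 tissue. The set held 10 genes of the 22180 measured in epididymal fat: the serum amyloid A genes Saa1, Saa2, Saa3 and Saa4, the lipocalin gene Lcn2, the haptoglobin gene Hp, the hemopexin gene Hpx, and the alpha-1-acid glycoprotein (orosomucoid) genes Orm1, Orm2 and Orm3. Saa3, Lcn2 and Hp formed the fat-made class, and the other 7 genes formed the liver-made class, although liver is a main source of Hp too. The class names do not give the source of the RNA in this fat, which was not tested. On the A/J array the liver-made Orm1 (9.64), Orm2 (8.43) and Hpx (8.42) stood above the fat-made Saa3 (8.29). The genes were chosen by function, and with their levels on these same arrays already known, so all values below are a description without a test. Of the 10 genes, 9 had a probe set that named them alone. Saa1 was named only by a probe set that also names Saa2, and this probe set is given apart.

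The tissue came from male mice of A/J-12SM, a consomic strain that carries chromosome 12 of SM/J on the genome of A/J, and of A/J, the recipient strain. Both strains ate a high-fat diet for 7 weeks, beginning at 6 weeks of age, and went without food for 4 h before the fat was taken. RNA of 3 mice was pooled for the single array of each strain, so that no value has a replicate error and no p-value exists. "Higher" and "lower" refer to these 2 arrays, and fewer cells of a type and less RNA per cell cannot be told apart in whole fat. Because the whole of chromosome 12 was exchanged, a difference cannot be tied to any 1 gene of it.

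All members lie outside the exchanged chromosome. Positions are those of RefSeq on GRCm38.p6. The Saa genes lie together on chromosome 7, with Saa3 at 46711998 to 46719615, Saa4 at 46727992 to 46732603, Saa1 at 46740497 to 46743181 and Saa2 at 46751833 to 46754313. Hpx lies on the same chromosome at 105591611 to 105600116. The Orm genes are neighbours on chromosome 4, where Orm1 (63344556 to 63348163) is followed by Orm3 (63356069 to 63359506) and Orm2 (63362449 to 63365877). Lcn2 lies on chromosome 2 (32384637 to 32387739) and Hp on chromosome 8 (109575128 to 109579172).

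The fat-made class was lower with A/J-12SM in 3 of 3 genes, whereas the liver-made class was split. Differences are log2 levels of A/J-12SM minus A/J, and a size above 0.75, the limit that the study set for its own selection, is called past the threshold. Of the 9 genes with a probe set of their own, Saa4 and Orm3 were above 0.75, and Saa3, Lcn2 and Orm2 were below -0.75. The fat-made Hp was below 0 but within the threshold. Among all genes, 2.86% were above 0.75 and 4.28% were below -0.75, and 10259 of 22180 were below 0. These differences were known when the set was chosen, and nothing is read from that contrast. The median difference was -2.48 over the 3 fat-made genes and 0.26 over the 6 liver-made genes, against 0.03 over all genes. The direction of the liver-made median depended on the minimum level. It was 0.35 over the 5 genes that reached 6 on either array, and -0.16 over the 4 that reached 7, where Orm3 dropped out. The medians of the classes thus lay 2.73 apart. The liver-made differences ran from -1.42 to 3.04 and those of the fat-made class from -2.60 to -0.69, so the ranges of the classes overlapped.

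**Figure D1:**
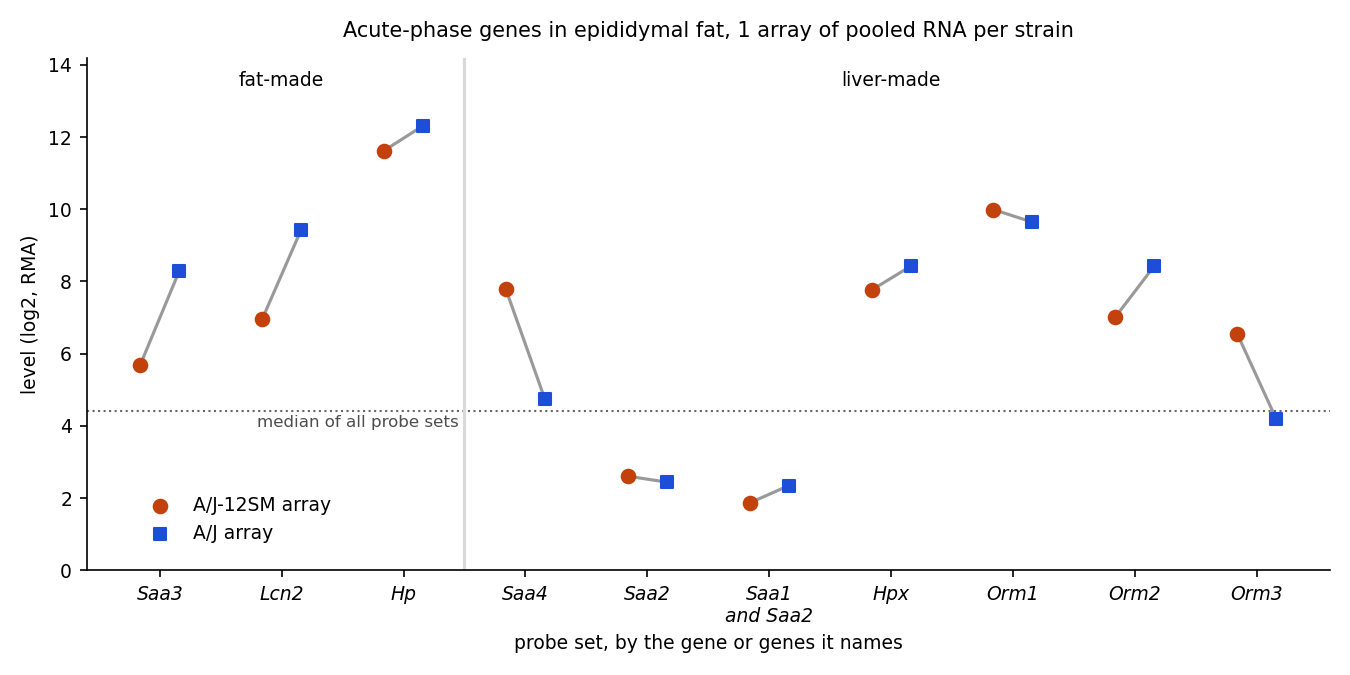
Log2 levels (RMA, vertical axis) of each probe set that names a member (horizontal axis) on the A/J-12SM array (circles, left of each pair) and on the A/J array (squares, right), with 1 array of pooled RNA per strain and no error bars. The dotted line is the mean of the medians of the 2 arrays. Circles lie under squares for Saa3, Lcn2, Hp, Hpx, Orm2 and the probe set that names Saa1 and Saa2. They lie over squares for Saa4, Orm3, Orm1 and Saa2 alone, and both probe sets for Saa2 lay under the dotted line.

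Saa3 encodes a serum amyloid A that is made outside the liver, by fat cells and macrophages, and it had the lowest difference of the set. Its log2 level was 5.69 on the A/J-12SM array, against 8.29 on the A/J array. This is a difference of -2.60, or a 6.05-fold lower level with A/J-12SM. In the order of all 22180 genes it ranked 38 from the lowest difference. Among the 2643 genes whose mean level lay within 0.5 of its own, 3, itself included, had a difference that low or lower.

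Saa4, its neighbour in the cluster, differed in the opposite direction and by more. It encodes the constitutive serum amyloid A, an apolipoprotein of high-density lipoprotein that hepatocytes make without an acute-phase stimulus. The level was 7.78 on the A/J-12SM array, against 4.74 on the A/J array, an 8.23-fold higher level with A/J-12SM. The A/J level was close to the median of all probe sets on that array (4.40). A level near this median cannot be separated from background, so the size of the difference is uncertain. Saa4 ranked 3 from the highest difference of all genes, and its difference lay 5.64 above that of Saa3.

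Saa1 and Saa2 encode the main acute-phase serum amyloids A of mouse liver, and both arrays held little signal for them. The probe set for Saa2 alone stood at 2.61 on the A/J-12SM array and 2.44 on the A/J array. The probe set that names Saa1 and Saa2 together stood at 1.87 on the A/J-12SM array and 2.35 on the A/J array. All 4 values lay below the medians of the arrays (4.43 for A/J-12SM and 4.40 for A/J), and the differences of 0.17 and -0.48 differed in sign. They stayed within the threshold, at levels that cannot be separated from background. The paralogs are alike in sequence, and which copy the shared probe set measures was not tested.

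The promoter windows of Saa3 and Saa4 are shown because these neighbours differed in opposite directions on the arrays. Each window holds 250 bases before and 50 bases after the start site that RefSeq annotates on GRCm38.p6, and capitals mark matches to the C/EBP motif TTGCNNAA on either strand.
Saa3 (chr7:46715627-46715926, minus strand): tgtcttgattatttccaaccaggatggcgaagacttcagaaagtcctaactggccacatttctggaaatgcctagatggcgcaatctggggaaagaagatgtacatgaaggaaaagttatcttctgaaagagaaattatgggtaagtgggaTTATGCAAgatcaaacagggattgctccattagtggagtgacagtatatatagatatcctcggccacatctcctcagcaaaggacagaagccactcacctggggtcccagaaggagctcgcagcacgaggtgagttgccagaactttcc
Saa4 (chr7:46732554-46732853, minus strand): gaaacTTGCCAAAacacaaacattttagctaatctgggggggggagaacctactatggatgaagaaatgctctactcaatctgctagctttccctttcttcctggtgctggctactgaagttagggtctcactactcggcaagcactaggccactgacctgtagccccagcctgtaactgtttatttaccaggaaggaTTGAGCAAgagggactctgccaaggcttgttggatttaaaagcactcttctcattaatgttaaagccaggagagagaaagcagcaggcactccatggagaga

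The start sites used for Saa3, Saa1 and Orm3 lie inside the spans of these genes given above, so their windows are not those of the outermost annotated start, and distances to a match hold for the start site used. The windows of Saa3 and Saa4 were 48.4% identical in a global alignment, while those of Saa1 and Saa2 were 95.3% identical. Saa3 had 1 match, which began 99 bases before the start site, and Saa4 had 2, which began 245 and 52 bases before it. In Saa1 and Saa2 the match began 182 and 183 bases before the start site. Windows were at hand for 8 of the 10 members, Orm1 and Hp being those without, and all 8 held at least 1 match. They were not 8 separate cases, since Saa1 and Saa2 (95.3% identical) and Orm2 and Orm3 (86.6%) were near copies. All are sequences of the reference genome, and those of the strains were not read. Of all 32851 windows of this length, 10.8% held the motif. The STAT motif TTCNNNGAA, found in 8.30% of all windows, and the NF-kB motif, found in 8.46%, had no match in the 8 windows. A match is a description of these letters, and binding was not measured. Because all 8 windows held the C/EBP motif, its presence could separate neither the classes nor the directions, and nothing is read from it.

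**Figure D2:**
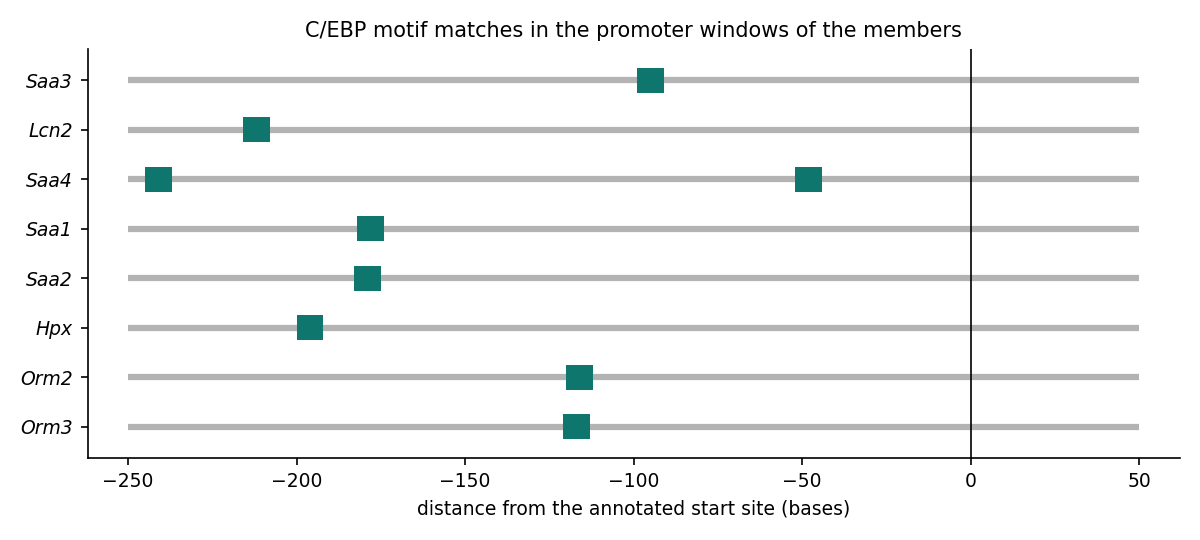
Matches to the C/EBP motif (blocks) in the promoter windows of 8 members (rows), by distance in bases from the annotated start site (horizontal axis, start site at the vertical line). Every window held at least 1 match, between 245 and 52 bases before the start site.

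Lcn2 encodes lipocalin 2, which binds bacterial siderophores and so withholds iron, and which neutrophils, macrophages and fat cells secrete. Its level was 6.96 on the A/J-12SM array, against 9.43 on the A/J array. This is a difference of -2.48, or a 5.56-fold lower level with A/J-12SM, which ranked 43 from the lowest of all genes. Among the 2027 genes of like level, 2, itself included, had a difference that low or lower. Both levels lay well over the medians of the arrays. The window of Lcn2 is shown because it had the next lowest difference after Saa3, and its match began 216 bases before the start site.
Lcn2 (chr2:32387690-32387989, minus strand): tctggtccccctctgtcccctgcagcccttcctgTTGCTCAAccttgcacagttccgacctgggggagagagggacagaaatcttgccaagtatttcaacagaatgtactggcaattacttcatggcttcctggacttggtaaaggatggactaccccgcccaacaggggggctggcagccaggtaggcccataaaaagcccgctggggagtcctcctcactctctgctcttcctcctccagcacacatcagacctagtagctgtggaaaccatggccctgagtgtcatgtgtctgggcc

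Hp encodes haptoglobin, which captures free haemoglobin, and it was lower by less than the threshold. The level was 11.62 on the A/J-12SM array, against 12.31 on the A/J array. The difference of -0.69 corresponds to a 1.61-fold lower level with A/J-12SM. Genes about as bright as Hp differed little between the arrays. Among the 61 genes with a mean level within 0.5 of that of Hp, none was past 0.75, and no other had a difference as low. Hpx encodes hemopexin, which binds free haem, and its values were 7.76 on the A/J-12SM array and 8.42 on the A/J array. The difference of Hpx, -0.66, was 0.03 from that of Hp, although they were placed in different classes. Among the 2071 genes of like level, 60, itself included, had a difference as low as that of Hpx.

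The Orm genes encode alpha-1-acid glycoproteins, plasma carriers of drugs and lipids, and their 3 copies differed in direction. Orm1, a major form in mouse liver, stood at 9.99 on the A/J-12SM array and 9.64 on the A/J array, a difference of 0.35. Orm2 stood at 7.01 on the A/J-12SM array, against 8.43 on the A/J array. It was 2.67-fold lower with A/J-12SM, and 14 of the 2284 genes of like level, itself included, had a difference as low. Orm3 was the only copy that was higher by more than the threshold. Its level was 6.56 on the A/J-12SM array, against 4.20 on the A/J array, a 5.14-fold higher level with A/J-12SM. The A/J level of Orm3 was under the median of that array, so the size of its difference is uncertain. The differences of Orm3 and Orm2 lay 3.78 apart.

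The windows of Orm2 and Orm3 are shown because the copies differed in opposite directions while their promoters were 86.6% identical. In both, the C/EBP match (capitals) stands at nearly the same place, 120 bases before the start site used in Orm2 and 121 in Orm3, whose start site lies inside the gene's span.
Orm2 (chr4:63362199-63362498, plus strand): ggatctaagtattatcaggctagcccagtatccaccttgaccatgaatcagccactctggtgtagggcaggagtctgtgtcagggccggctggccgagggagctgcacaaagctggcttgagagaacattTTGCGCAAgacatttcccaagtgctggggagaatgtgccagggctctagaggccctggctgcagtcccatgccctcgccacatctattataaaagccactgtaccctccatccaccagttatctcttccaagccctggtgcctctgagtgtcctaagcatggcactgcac
Orm3 (chr4:63355908-63356207, plus strand): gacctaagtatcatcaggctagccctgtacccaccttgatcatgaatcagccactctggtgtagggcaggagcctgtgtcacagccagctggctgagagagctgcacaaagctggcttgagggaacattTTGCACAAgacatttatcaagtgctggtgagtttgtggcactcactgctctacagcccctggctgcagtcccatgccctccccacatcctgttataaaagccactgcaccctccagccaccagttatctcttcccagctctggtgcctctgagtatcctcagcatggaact

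Whether RNA of 1 Orm copy also bound probes of another was not tested, and a level of a single copy is uncertain for that reason. Across the paralogs of either family the direction was mixed, with Saa4 and Orm3 above 0.75 and Saa3 and Orm2 below -0.75.

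**Figure D3:**
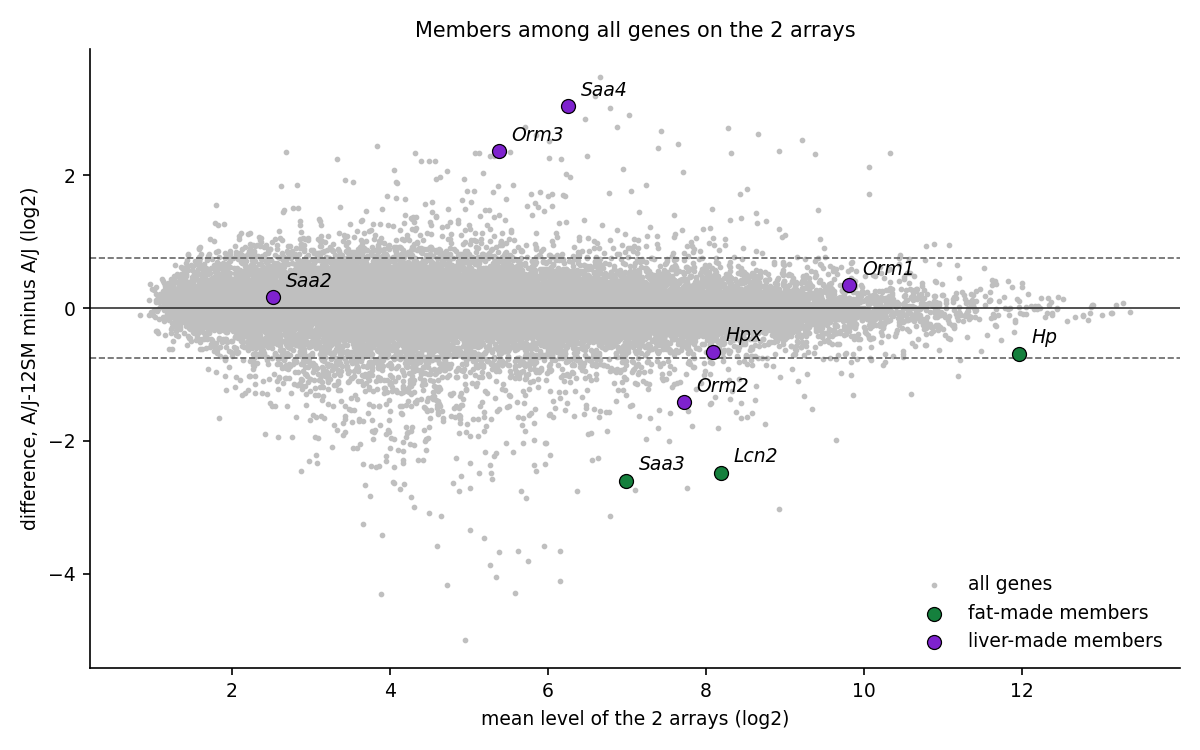
Difference of A/J-12SM minus A/J (log2, vertical axis) against the mean level of the 2 arrays (log2, horizontal axis) for all 22180 genes (grey points), with the fat-made members in green and the liver-made members in purple. Dashed lines mark 0.75 and -0.75. Saa4 and Orm3 lie above most of the cloud, and Saa3 and Lcn2 lie below most of it. Orm2 lies in its lower fringe, and Hp lies at the lower edge of the genes of like level.

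Most genes next to the members stayed within the threshold, as did most of all genes. The 3 nearest measured genes with an established name on each side of the 5 loci gave 30 neighbours. Of these, 1 was above 0.75 and 1 below -0.75, with a median of 0.01. Over all genes the shares were 2.86% and 4.28%, so nothing particular to the neighbours is read from these counts. Around the Saa cluster the neighbours Sergef, Tph1, Saal1, Hps5, Gtf2h1 and Ldha ran from -0.25 to 0.31. Saal1, which lies next to Saa3, stood at 5.51 on the A/J-12SM array and 5.68 on the A/J array. The neighbours of Lcn2 ran from -0.39 to 0.31 and those of Hpx from -0.15 to 0.33. Beside the Orm cluster, Ambp, the gene of alpha-1-microglobulin and bikunin that liver expresses, was higher with A/J-12SM (5.91 against 3.97). Beside Hp, Pmfbp1, a gene known from sperm, was lower with A/J-12SM (3.52 against 5.36). Orm1 and the other neighbours of the Orm cluster stayed within the threshold.

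**Figure D4:**
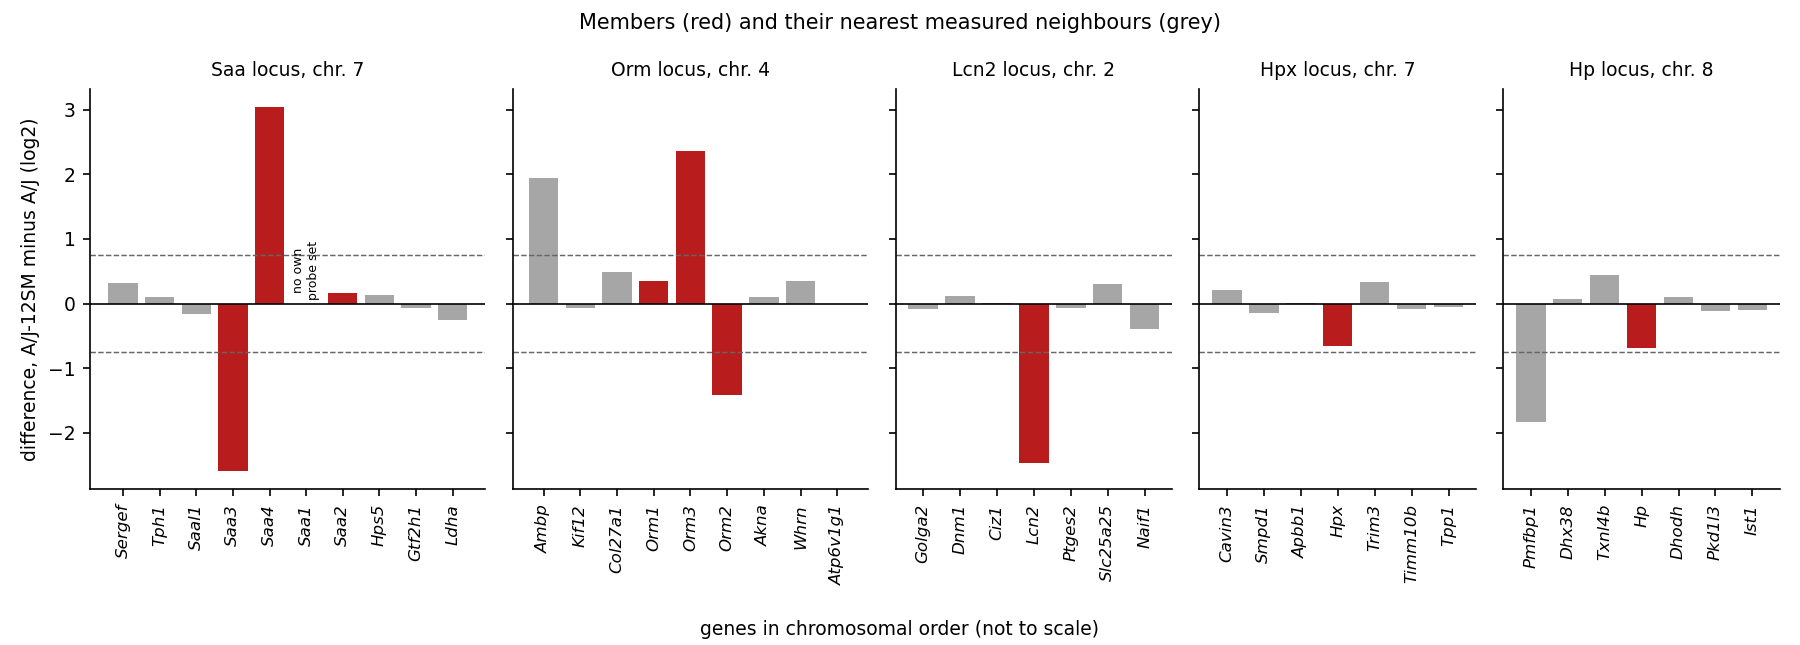
Differences of A/J-12SM minus A/J (log2, vertical axis) for the members (red) and the 3 nearest measured genes on each side (grey), in chromosomal order and not to scale, at 5 loci. Dashed lines mark 0.75 and -0.75, and Saa1 has no bar because no probe set names it alone. The neighbours of Saa3, Saa4 and Lcn2 all lie within the dashed lines.

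Most cytokines that drive acute-phase genes were below the medians of the arrays. Of 12 ligands, 8 were under the medians of both arrays, among them Il6 (2.09 with A/J-12SM and 2.07 with A/J) and Il1b (3.50 on both). Above the threshold was 1, Il22, at 1.86 with A/J-12SM and 1.05 with A/J, and none was below -0.75. Both values of Il22 lay below the medians of the arrays (4.43 and 4.40), at levels that cannot be separated from background. Ctf1, cardiotrophin 1, had 6.28 with A/J-12SM and 6.05 with A/J, and Il18 had 6.12 with A/J-12SM and 6.08 with A/J. The median of the ligand list was 0.03. Of 14 receptors and antagonists, Il1rn, the secreted antagonist of the interleukin 1 receptor, was below -0.75, with 4.79 on the A/J-12SM array, against 6.55 on the A/J array, and none was above. The receptor list had a median of -0.12. Over all genes 2.86% were above 0.75 and 4.28% below -0.75, so the counts of these lists are not read as a trait of them.

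The signalling genes behind these receptors stayed within the threshold, as did most of all genes. Of 19 measured genes of transduction none was past the threshold in either direction, and the median was -0.05. Over all genes 2.86% were above 0.75 and 4.28% below -0.75, so a list this short can hold none and nothing is read from that. The lowest was Nfkb2, a subunit gene of NF-kB, at 6.51 with A/J-12SM and 7.22 with A/J, a difference of -0.72, and Myd88, the adaptor of interleukin 1 and Toll-like receptors, differed by -0.61. Stat3, the factor downstream of the interleukin 6 receptor, stood at 9.50 on the A/J-12SM array and 9.76 on the A/J array, and the kinase gene Jak1 had 10.22 with A/J-12SM and 10.31 with A/J. Of the C/EBP genes, Cebpa differed by 0.33, Cebpb by -0.09 and Cebpd by -0.08. The hepatocyte transcription factors had a median of 0.29 over 9 genes, none past the threshold, and nothing is read from that count either. Creb3l3 had 5.93 with A/J-12SM and 5.39 with A/J, and Foxa2 had 5.82 with A/J-12SM and 5.77 with A/J. None of the 9 reached a level of 6 on either array.

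Other acute-phase proteins that liver makes were among the higher genes with A/J-12SM. Of 23 positive acute-phase genes, whose products increase in the response, 10 were above 0.75 and 1 was below -0.75, with a median of 0.48. Hamp, the gene of hepcidin, had 8.40 on the A/J-12SM array, against 4.93 on the A/J array. The fibrinogen chain genes Fgg (7.89 against 5.05), Fgb (7.64 against 5.35) and Fga (6.19 against 4.16) were also higher with A/J-12SM. Cfb, complement factor B, was the 1 below the threshold (9.27 against 10.04). Lbp (-0.30), the lipopolysaccharide-binding protein, and Serpina3n (-0.16) stayed within it. The median of this list depended on dim genes. Over the 14 genes that reached 7 on either array it was -0.11.

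Negative acute-phase genes, whose products decrease in the response, were higher too. Of 12 measured, 9 were above 0.75 and 2, Igfals and Igf1, were below -0.75, with a median of 1.72. Ahsg, fetuin-A, had 9.97 with A/J-12SM, against 7.34 with A/J, and Apoh, beta-2-glycoprotein I, had 7.27, against 4.75 with A/J. Apoa1, an apolipoprotein of high-density lipoprotein, had 8.87 with A/J-12SM, against 6.41 with A/J. Ttr, transthyretin, had 8.16, against 6.32 with A/J. Most negative genes and 10 of the 23 positive genes were thus above 0.75, while 9 of the positive genes were below 0. Of these lists, 3 genes lie on chromosome 12 itself, 1 of them positive and 2 negative. The lists of transduction and of hepatocyte transcription factors each held 1 gene of that chromosome too.

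Markers of hepatocytes differed in the same direction as the higher members. Of 10 measured hepatocyte markers, 9 were above 0.75, with a median of 2.33, and the summed level of the list was 12.44 (log2) on the A/J-12SM array, against 10.34 on the A/J array. Cps1 had 8.19 with A/J-12SM, against 4.99 with A/J, and Tat had 8.24, against 5.50 with A/J. No marker of the list lay below the medians of both arrays. The lists overlap, since 13 of their 185 genes stand on more than 1, among them Ahsg, Apoh, Ttr and Fgb. The differences of Saa4, Orm3 and Orm1 were inside the range of this list, 0.29 to 3.20. Its low end was Hnf4a alone (0.29), and the 9 markers above 0.75 began at 1.71 (Alb), well over Orm1 (0.35). The differences of the other 3 measured liver-made members, Saa2, Hpx and Orm2, were under the range. The part of hepatocyte RNA in these results was not tested.

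Most macrophage markers differed in the same direction as the lower members, and neutrophil markers were mixed. Of 9 macrophage markers, 8 were below 0, 3 of them below -0.75, and none was above 0.75, with a median of -0.41, and the summed level was 13.07 on the A/J-12SM array, against 13.55 on the A/J array. The 3 were Itgax, with a difference of -1.37, Trem2 (8.16 against 9.02) and Ctss (10.82 against 11.61). Saa3 and Lcn2 were under the range of this list, -1.37 to 0.44, and Hp was inside it. Of 9 neutrophil markers, 6 were above 0 and 3 below, with a median of 0.18, and 2 were below -0.75 and 1 above 0.75. Below the medians of both arrays were 6, namely S100a9, Retnlg, Ngp, Camp, Ltf and Cxcr2. S100a8 was lower with A/J-12SM (2.81 against 5.81), as was Csf3r (5.06 against 6.37). Ltf was above 0.75 (3.92 against 3.03), and S100a9 (0.60), Ngp (0.52) and Elane (0.43) were higher within it. The summed level of the neutrophil list was 7.02 with A/J-12SM, against 7.70 with A/J. The part of these cells in the results was not tested.

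Adipocyte markers were bright on both arrays and close between them. Of 7 adipocyte markers, Adipoq was above 0.75 (11.26 against 10.32) and none was below, with a median of -0.02. Their summed level was 14.73 on the A/J-12SM array, against 14.64 on the A/J array. Stromal progenitor markers stayed within the threshold, as most of all genes did. Dcn was at 12.23 on both arrays, and Cd34 at 9.65 with A/J-12SM and 9.67 with A/J. Mesothelial markers were above 0 in 8 of 8 genes, 1 of them, Upk1b, past 0.75 (8.28 against 7.11). Markers of male germ cells were below -0.75 in 6 of 6 genes, with a median of -3.49, among them Mael (2.46 with A/J-12SM against 7.45 with A/J), Smcp (2.63 against 6.81), Tnp2 (3.79 against 7.44) and Tnp1 (3.34 against 6.68). The epididymis list had a median of 0.08, with Aqp9 at 5.77 and Lcn5 at 5.08 on the A/J-12SM array, against 5.63 and 4.89 on the A/J array. Adam7 was the 1 gene of that list past the threshold, at 2.53 with A/J-12SM and 3.33 with A/J, both below the medians of the arrays. Whether cells other than fat cells had a part in the members' values was not tested.

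**Figure D5:**
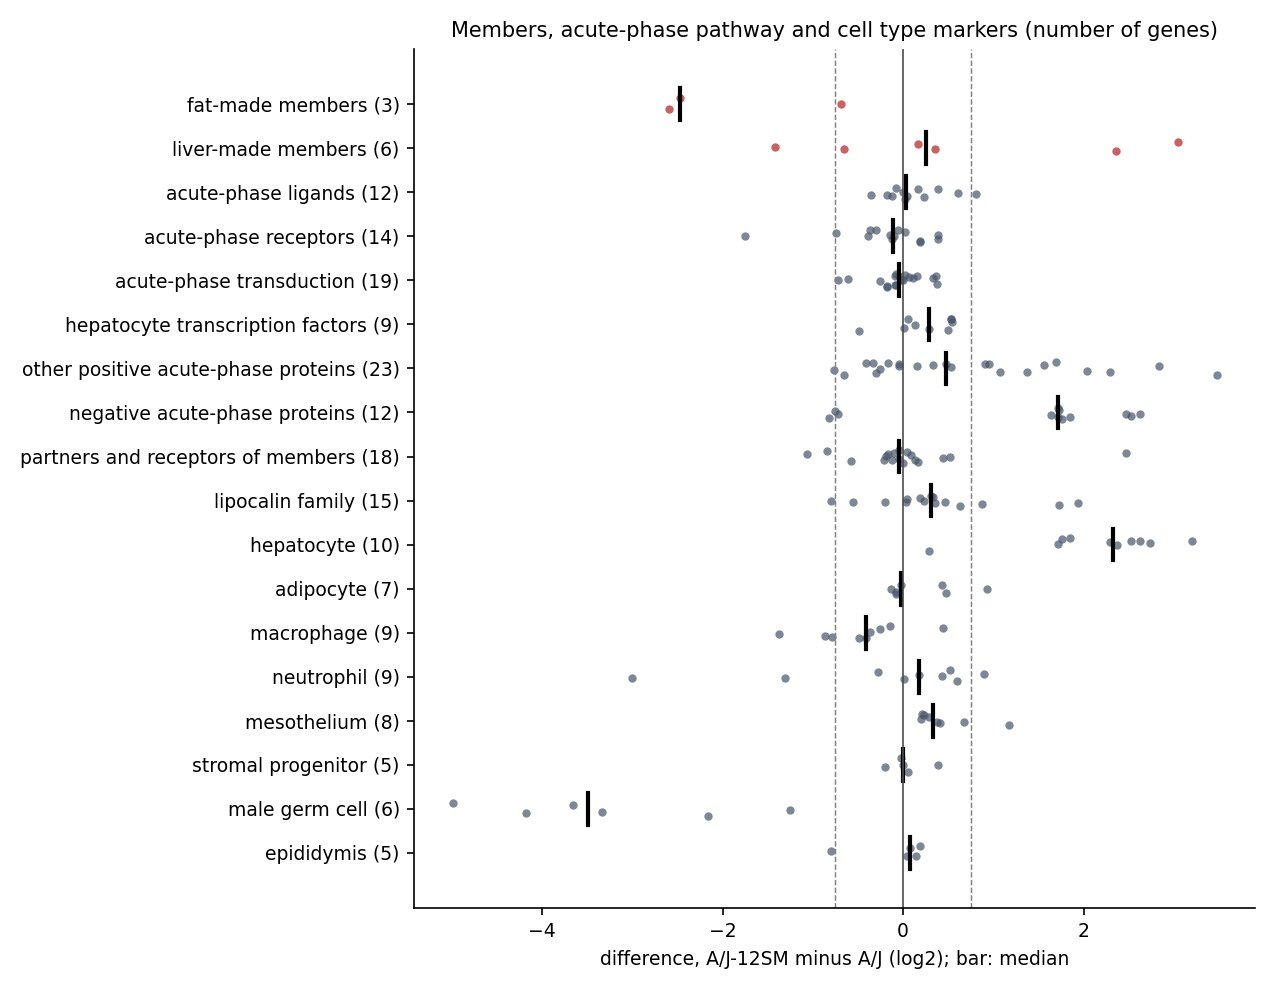
Differences of A/J-12SM minus A/J (log2, horizontal axis) for the members (red points) and for the genes of each list (grey points), with the median as a black bar and the number of genes in parentheses. Dashed lines mark 0.75 and -0.75. The hepatocyte and negative acute-phase lists lie mostly to the right, the male germ cell list lies to the left, and the cytokine, receptor and transduction lists lie around 0.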

How the data were processed

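Epididymal fat RNA, 100 ng per array from a pool of 3 mice, was hybridized to 1 Affymetrix mouse whole-transcript array per strain. The deposited log2 levels were made by the authors with RMA-sketch in Affymetrix Expression Console (1.3.0 in the submitters' processing notes). RMA subtracts background, brings all arrays to 1 distribution and fits 1 level per probe set. A shift shared by most genes would be removed by this step. The genome build and probe annotation behind the levels are not given in the sources used here, and the number of arrays limits the precision.

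The table held 41345 probe sets on both arrays, with 0 missing values. The platform annotation named 1 gene for 23521 of them, several for 1820 and none for 16004. A gene was represented by its brightest probe set with 1 name. Members and gene lists were chosen with earlier results of these data known. Genes named from a list were at most the 4 largest differences past 0.75 among genes that reached 6 on either array, otherwise the 2 brightest. Il6, Il1b, Il22, Cebpa, Cebpb, Cebpd, Cfb, Lbp, Serpina3n, Igfals, Igf1, Lrp2, Ambp, Obp2a, S100a8, S100a9, Retnlg, Ngp, Camp, Cxcr2, Ltf, Elane, Adam7, Apod, Nfkb2, Myd88, Cd163, Lrp1, Alb and Hnf4a were named after their values were seen. Summed levels are the log2 of summed linear levels.

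Alternatives were centring, loess (span 0.3), quantile scaling, the mean over probe sets, probe sets with several names, minimum levels of 5, 6 and 7, thresholds of 0.5 and 1.0, class means and Hp in the liver-made class. Scripts were tested on simulated data. Promoter windows came from RefSeq (GRCm38.p6), aligned globally with Biopython 1.88. Protein sequences were not used here, so the planned protein alignment was left out. Loess was run in statsmodels 0.14.6 and tables were handled in pandas 2.3.3 (Python 3.11.15, NumPy 2.4.6), with plots from matplotlib 3.10.9.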

Additional observations from a re-analysis of the deposited data

How the results depend on the processing

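Loess and quantile scaling moved no member's difference by 0.1 or more, and each of the 9 members kept its direction under them. Centring and the mean over probe sets could not test this. Each of the 9 had a single probe set of its own, so the mean over probe sets left its value unchanged. Centring shifted all differences alike, by the gap between the array medians (4.43 for A/J-12SM and 4.40 for A/J). Over all these settings, Saa3 ran from -2.62 to -2.58, Lcn2 from -2.50 to -2.44, Saa4 from 3.01 to 3.04 and Orm3 from 2.32 to 2.36. Hp ran from -0.72 to -0.64 and so stayed within 0.75. When only genes that reached 7 on either array were kept, 1 member was above 0.75 instead of 2, since Orm3 dropped out, the liver-made median was -0.16 over 4 genes, which turned its direction, and the classes lay -2.32 apart. With means in place of medians, the fat-made class was at -1.92, the liver-made class at 0.64 and their difference at -2.56. At a threshold of 0.5, 5 members were lower instead of 3, with Hp and Hpx added. Loess left 493 genes above 0.75 and 1103 below -0.75, against 634 and 949 as deposited. Of the list medians, minimum levels moved 14 values, among them the neutrophil median, which was -1.31 over the 1 gene that reached 6, against 0.18. The lipocalin median was -0.55 over the 3 genes that reached 6, against 0.31, and the positive acute-phase median was 0.05 there. No paired analysis was possible because each strain had 1 array, and for the same reason no replicate could be left out. No detection call was used, so low levels are not separated from background.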

Other observations

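Genes of the proteins that bind or clear the members mostly stayed within the threshold, as did most of all genes. Of 18 measured, 1 was above 0.75 and 2 were below -0.75, with a median of -0.05. Over all genes the shares were 2.86% and 4.28%, and nothing is read from the counts of so short a list. Hmox1, heme oxygenase 1, which breaks down the haem that hemopexin delivers, stood at 7.88 on the A/J-12SM array, against 8.95 on the A/J array. Lrp2, megalin, an endocytic receptor that takes up lipocalin 2, was also lower with A/J-12SM (4.54 against 5.39), and Apoa1 was the higher gene. Cd163, the macrophage receptor for haptoglobin bound to haemoglobin, differed by 0.44, and Lrp1, the receptor for hemopexin bound to haem, by -0.10.

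The other lipocalins differed in both directions. Of 15 genes of this family, 12 were above 0, with a median of 0.31. Above 0.75 were Ambp (1.94), Rbp4 (1.72), the retinol carrier of plasma, and Obp2a (0.88), and below -0.75 was Ptgds (-0.79), the lipocalin-type prostaglandin D synthase. Only 3 of the 15 reached a level of 6 on an array, namely Rbp4, Ptgds and Apod (-0.55), the gene of apolipoprotein D, and over these the median was -0.55. Below the medians of both arrays were 7 genes, so the median of the family rested on dim genes. The epididymal lipocalin gene Lcn5 differed by 0.19. Values for these genes carry no replicate error.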
